A study of Mus musculus with 4 samples.

Results

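Antigen presentation by MHC class II was followed in single blood-forming stem cells of the mouse through 7 genes: H2-Aa, H2-Ab1, H2-Eb1, Cd74, H2-DMa, H2-DMb1 and Ciita. They were taken by symbol from the count tables, 7 of 31053 genes, and all 7 were found in every library. There were 4 libraries, from 2 male mice aged 14 weeks. From each mouse, bone marrow cells without lineage markers and CD48 that carried Kit and Sca-1 were sorted by CD150. CD150+ cells were taken as long-term hematopoietic stem cells (LT-HSC) and CD150- cells as short-term hematopoietic stem cells (ST-HSC). Every library came from the strain labelled Tie2-bG-Micm x RosaYFP, a Tie2-driven inducible Cre with a YFP reporter, so both gates shared these alleles. Each gate had 2 libraries, 1 per mouse. The 10x Chromium 3' v3 method counts each captured RNA molecule once by its unique molecular identifier (UMI). Barcodes with at least 1000 genes, at least 2000 UMIs and no more than 10% of these in mt- genes (those of the mitochondrial genome) were kept as cells, 5579 in all.

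MHC class II molecules display peptides from endocytosed proteins to CD4+ T cells, and they are best known from dendritic cells, macrophages and B cells. H2-Aa and H2-Ab1 encode the alpha and beta chain of the I-A molecule, and H2-Eb1 the beta chain of I-E. The invariant chain, encoded by Cd74, guides new molecules to endosomes and blocks their groove until it is cut. H2-DM, made from H2-DMa and a beta chain, removes the last invariant chain peptide and edits what is loaded, while H2-DO, made from H2-Oa and H2-Ob, restrains H2-DM. Ciita encodes the co-activator that class II promoters depend on. It binds no DNA itself but a complex of factors assembled on the X and Y boxes, and interferon gamma raises it.

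Promoter stretches of the class II genes are shown as background on these boxes. Whether the boxes relate to how the genes moved together in cells was not tested. RefSeq windows of 250 bases upstream of the start (build GRCm38.p6) were found for 4 of the 7 members, H2-Aa, H2-Eb1, H2-DMa and H2-DMb1, and for the 4 near relatives H2-DMb2, H2-Eb2, H2-Oa and H2-Ob. H2-Ab1, Cd74 and Ciita had no window in the table used here. The windows were searched on both strands for the Y box letters TGATTGG, the X box (the letters that stand first in capitals in H2-Eb1, with any base allowed at its position 2), and TGACGTCA, a cyclic AMP element of the kind found at the X2 box. No pair of these motifs overlapped in the sequences shown. The sequences are printed 5' to 3' on the strand of the gene, with 15 bases on either side and the motifs in capitals.
H2-Aa, minus strand, chr17:34287852-34287912: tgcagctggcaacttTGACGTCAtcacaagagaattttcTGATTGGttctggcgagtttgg
H2-Eb1, plus strand, chr17:34305761-34305827: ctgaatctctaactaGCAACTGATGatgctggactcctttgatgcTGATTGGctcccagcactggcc
H2-Eb2, plus strand, chr17:34325528-34325594: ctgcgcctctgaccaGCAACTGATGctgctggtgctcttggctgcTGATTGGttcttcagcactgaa
H2-Ob, plus strand, chr17:34238831-34238867: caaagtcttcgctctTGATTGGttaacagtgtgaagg
H2-DMb2, plus strand, chr17:34145142-34145178: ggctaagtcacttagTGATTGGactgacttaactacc

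The X box letters were followed by the Y box in H2-Eb1, H2-Eb2 and H2-DMb1, with 20, 20 and 21 bases between them. H2-Aa held the Y box and the cyclic AMP element, without the X box letters as searched. H2-Ob, H2-DMb2 and H2-Oa held the Y box alone, and the 2 windows of H2-DMa held none of these letters. Among 32851 promoters of the same length, the Y box letters were present on either strand in 7.23%, the X box letters in 0.289% and the cyclic AMP element in 1.55%. An X box followed by a Y box within 40 bases was present in 4 of them (0.0122%), which were H2-Eb1, H2-Eb2, H2-DMb1 and BC051142. A match describes letters in a window and is not evidence of a bound site.

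In the GENCODE vM21 annotation of GRCm38, 9 of these genes lie on chromosome 17. In order of position they are H2-Oa (34092340 to 34095234), H2-DMa (34119541 to 34139101), H2-DMb2 (34143307 to 34151555), H2-DMb1 (34153072 to 34160230) and H2-Ob (34238903 to 34254414). Then follow H2-Ab1 (34257689 to 34269419), H2-Aa (34282744 to 34287823), H2-Eb1 (34305867 to 34316674) and H2-Eb2 (34325665 to 34341412). Of these, H2-Aa alone is on the minus strand. Ciita lies on chromosome 16 from 10480059 to 10528418. H2-DMa overlaps Brd2, Ciita overlaps Dexi, and H2-Eb1 and H2-Oa overlap antisense genes. The sources used here do not give the strand setting of the counting, so these counts are uncertain to that extent, and tags may be shared between H2-DMb1 and H2-DMb2 or between H2-Eb1 and H2-Eb2.

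One library stood apart. mouse 1 LT-HSC held 39553 barcodes with a median of 285 UMIs, and 22 of them (115305 UMIs) passed as cells. The other libraries kept 1217 (mouse 2 LT-HSC), 2633 (mouse 1 ST-HSC) and 1707 cells (mouse 2 ST-HSC), with median UMIs of 10367, 9881 and 7504 and totals between 13249904 and 27870823 UMIs. Levels are given as UMIs per 1000000 UMIs of a library (CPM). The floor set by 3 UMIs lay at 26.0 CPM in the cells of mouse 1 LT-HSC and between 0.108 and 0.226 CPM in the others. LT-HSC cells therefore come almost entirely from mouse 2, and shares per cell are described in 3 libraries of 5557 cells. For levels, all barcodes of mouse 1 LT-HSC are given beside its cells. Libraries shared at most 1 kept barcode.

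All 7 members were detected in every library, at levels of a few to about 190 CPM. H2-Aa lay at 88.8 CPM in mouse 2 LT-HSC, 84 in mouse 1 ST-HSC and 66.1 in mouse 2 ST-HSC, and the cells of mouse 1 LT-HSC held 5 UMIs (43.4 CPM, 95% counting interval 14.1 to 101). Over all barcodes that library held H2-Aa at 87.3 CPM, next to LT-HSC of the other mouse. H2-Ab1 lay at 80.2, 88.8 and 76.1 CPM in the same 3 libraries, at 17.3 CPM (2 UMIs) in the cells of mouse 1 LT-HSC and at 84.6 CPM over its barcodes. The gates overlapped for H2-Ab1, with and without those cells. H2-Eb1 was the lowest of the chain genes, at 54.6, 46.4 and 39.3 CPM, with 8.67 CPM (1 UMI) in the cells of mouse 1 LT-HSC and 58.6 over its barcodes. With barcodes in place of those few cells, both LT-HSC values of H2-Aa and of H2-Eb1 lay above both ST-HSC values.

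Cd74, the invariant chain gene, lay at 189, 157 and 160 CPM, with 95.4 CPM (11 UMIs) in the cells of mouse 1 LT-HSC and 178 over its barcodes. The peptide editor gene H2-DMa had 138 CPM in mouse 2 LT-HSC against 184 and 190 in ST-HSC. mouse 1 LT-HSC held H2-DMa at 95.4 CPM in cells and 152 over barcodes, so both LT-HSC values were below both ST-HSC values on either count. H2-DMb1, its partner chain, lay at 69.0, 57.0 and 61.8 CPM, with 43.4 in the cells and 63.9 over the barcodes of mouse 1 LT-HSC. The regulator Ciita was the lowest member, at 4.83 (64 UMIs), 5.42 (151 UMIs) and 3.83 CPM (52 UMIs), with 1 UMI in the cells of mouse 1 LT-HSC and 3.17 CPM over its barcodes. The molecule count of a 3' tag does not grow with transcript length, so these levels were not divided by length.

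**Figure D1:**
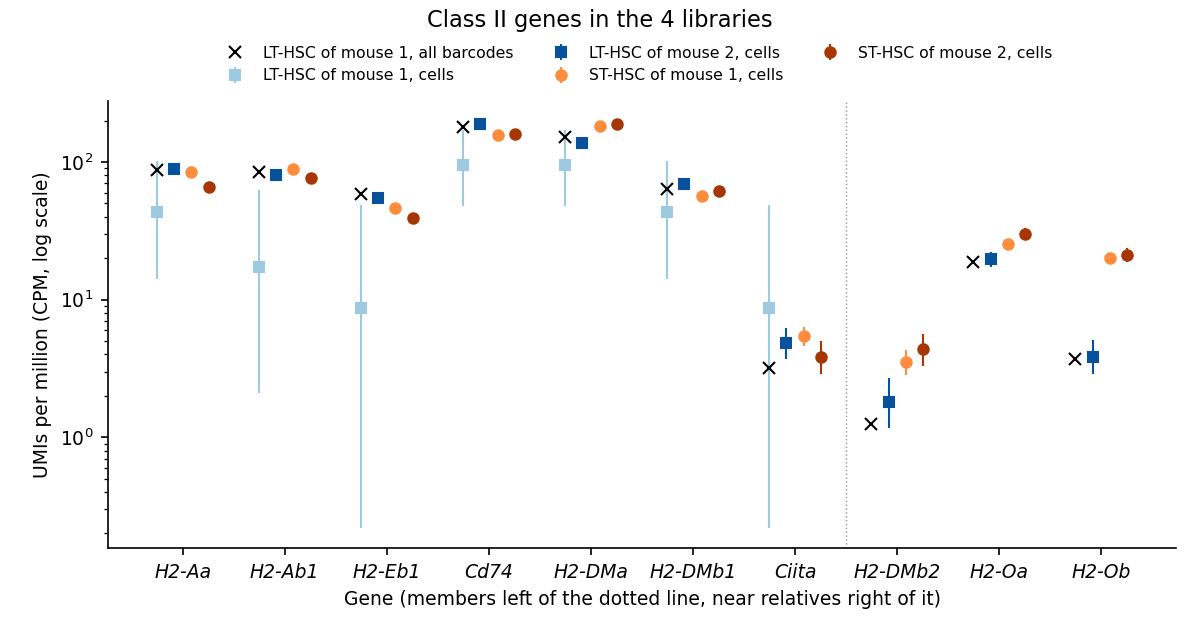
CPM (log scale) of the 7 members and 3 near relatives in the cells of each library, with 95% counting intervals, and a cross for all barcodes of mouse 1 LT-HSC. H2-DMa lies lower in LT-HSC (138 CPM in mouse 2, against 184 and 190 in ST-HSC) without passing the test, and H2-Ob is lower in LT-HSC (3.85 CPM against 20.1 and 21.2). Points at 0 UMIs in the cells of mouse 1 LT-HSC are not drawn.

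The comparison of the gates asked whether class II transcripts differ between long-term and short-term stem cells. Summed over cells, H2-Aa averaged 66.1 ± 32.1 CPM in LT-HSC and 75 ± 12.7 in ST-HSC (SD, n = 2 each), and with all barcodes of mouse 1 LT-HSC the LT-HSC mean was 88.0 ± 1.06. The fitted log2 fold change, which weighs libraries by their counts and so follows mouse 2 LT-HSC, was 0.16 (SE 0.18, 95% interval -0.20 to 0.52). Cd74 averaged 142 ± 66.2 CPM against 158 ± 2.12, or 184 ± 7.78 with all barcodes, and its log2 fold change was 0.10 (interval -0.27 to 0.47). For H2-Aa, Cd74, H2-Eb1 and H2-DMb1 the means over cells and the fit had opposite signs, and without mouse 2 LT-HSC the fitted values were -0.90, -0.85, -2.42 and -0.57, and -2.36 for H2-Ab1. H2-Eb1 (0.25, interval -0.15 to 0.65), H2-DMb1 (0.16, -0.21 to 0.54), H2-Ab1 (-0.15, -0.52 to 0.21) and Ciita (0.07, -0.64 to 0.78) did not pass the test either, with edgeR adjusted p from 0.814 to 0.996.

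In cells, H2-DMa was the member nearest the threshold, at 117 ± 30.1 CPM in LT-HSC and 187 ± 4.24 in ST-HSC. Its log2 fold change was -0.52 (SE 0.19, interval -0.90 to -0.14, edgeR adjusted p = 0.0885). With the mouse as a block it was -0.58 (adjusted p = 0.0476), and with all barcodes of mouse 1 LT-HSC it was -0.25 (adjusted p = 0.514). With all barcodes H2-Eb1 was nearest instead, at 0.52 (interval 0.17 to 0.87, adjusted p = 0.0676, or 0.0568 with the block). The block without all barcodes was the sole setting of 13 in which a member passed, and adjusted p for H2-DMa ranged from 0.0476 to 1. In all, 0 of the 7 members passed at the threshold of 0.05, where edgeR called 6.72% of 12656 genes in either direction (3.6% higher and 3.13% lower in LT-HSC), 6.76% with the block and 8.87% with all barcodes. DESeq2 called 0 members as well, and 1 member (H2-DMa) had an unadjusted p under 0.05 by edgeR. The interval of Ciita leaves a change of more than 1.5 times in either direction undecided.

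Among the near relatives, H2-Ob, the beta chain of the H2-DM restrainer H2-DO, was lower in LT-HSC. It lay at 3.85 CPM (51 UMIs) in mouse 2 LT-HSC, 20.1 CPM in mouse 1 ST-HSC and 21.2 CPM in mouse 2 ST-HSC. The cells of mouse 1 LT-HSC held 0 UMIs, under a floor of 26.0 CPM, and its barcodes together held 3.68 CPM. The log2 fold change of H2-Ob was -2.44 (SE 0.29, edgeR adjusted p = 9.59e-14), or -2.34 with all barcodes (adjusted p = 1.15e-05). The call was past the threshold in 11 of 13 alternatives. DESeq2 on cells did not call it (adjusted p = 1), and without mouse 2 LT-HSC no cells with H2-Ob were left in that gate (adjusted p = 0.527).

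H2-Oa, the partner of H2-Ob, lay at 19.7, 25.4 and 29.9 CPM in mouse 2 LT-HSC and both ST-HSC libraries, and at 18.7 CPM over the barcodes of mouse 1 LT-HSC. Its log2 fold change of -0.54 (SE 0.22) did not pass (edgeR adjusted p = 0.173). H2-DMb2, a second H2-DM beta chain gene, was scarce at 1.81, 3.52 and 4.35 CPM (-1.12, SE 0.45, adjusted p = 0.154), and passed with all barcodes of mouse 1 LT-HSC (-1.24, adjusted p = 0.029). H2-Eb2 had 3, 10 and 4 UMIs and was not tested. Of a list of 27 other genes of the class II pathway, its regulators and co-stimulation, 22 were tested, 0 were higher and 2 lower in LT-HSC, with a median log2 fold change of -0.12 against -0.02 over all genes tested. The lower genes were H2-Ob and Ctss, which encodes cathepsin S, a protease that cuts the invariant chain. Ctss lay at 10.1 CPM in mouse 2 LT-HSC and at 36.3 and 36.0 CPM in ST-HSC, with 8.54 CPM over the barcodes of mouse 1 LT-HSC (-1.87, SE 0.24, edgeR adjusted p = 9.25e-12), and DESeq2 did not call it in cells (adjusted p = 0.938) but did with all barcodes (-1.85, adjusted p = 2.2e-15).

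Transcripts of the members were spread over many cells, but unevenly. In mouse 2 LT-HSC, mouse 1 ST-HSC and mouse 2 ST-HSC, H2-Aa was detected in 38.0%, 35.1% and 26.2% of cells. H2-Ab1 was detected in 39.4%, 44.9% and 33.6%, and H2-Eb1 in 27.9%, 25.8% and 18.0%. Cd74 was found in 42.3%, 43.3% and 37.0% of cells, H2-DMb1 in 50.0%, 42.5% and 36.7%, and Ciita in 4.85%, 5.09% and 2.93%. H2-DMa was the most widely detected, in 70.9%, 81.8% and 74.4% of cells. Of the 22 cells of mouse 1 LT-HSC, 9 held Cd74, 6 held H2-DMa, 5 each held H2-Aa and H2-DMb1, 2 held H2-Ab1, and 1 each H2-Eb1 and Ciita.

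mouse 2 ST-HSC was the shallowest of the 3 large libraries. To compare shares, each cell was therefore thinned to 5000 UMIs, leaving out 71, 69 and 117 shallower cells in the order above. At that depth Cd74 was present in 33.1%, 32.1% and 30.0% of cells, H2-Aa in 26.2%, 23.6% and 19.9%, and H2-Ab1 in 26.2%, 29.2% and 26.0%. H2-DMa was present in 48.8% of mouse 2 LT-HSC (95% exact binomial interval 45.8 to 51.7) and in 59.3% and 59.4% of ST-HSC (57.4 to 61.2 and 56.9 to 61.8). These intervals cover counting error only. The H2-DMa shares thus kept the order of its CPM, and the intervals of Cd74 overlapped (30.4 to 35.9, 30.3 to 33.9 and 27.8 to 32.3).

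Free RNA in droplets can put UMIs into cells that do not make a transcript. As cells that should lack class II, 11 cells with UMIs of 6 or more of 11 neutrophil granule genes were used, a limit chosen after the values were seen. With a median of 11600 UMIs, they held H2-Aa, H2-Eb1 and Ciita in 0 of 11 cells, which allows a share of up to 28.5% (exact 95% limit). Cd74 was detected in 2 (18.2%), H2-Ab1 in 3 (27.3%), H2-DMb1 in 3 and H2-DMa in 4 (36.4%) of them. All of these shares lie below the unthinned ones of the 3 libraries, but with 11 cells the intervals are wide: that of H2-Ab1 (6.02% to 61.0%) covers the share in all 3 libraries, and so does that of Cd74 (2.28% to 51.8%), while that of H2-DMa ends at 69.2%. The share of these UMIs that is free RNA was not tested.

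Cd74 and the chain genes had more empty cells and more very rich cells than random sampling of an equal mean would give. At 5000 UMIs a cell, 66.9% of mouse 2 LT-HSC held no Cd74, where a Poisson distribution of the same mean has 36.3%. In ST-HSC these shares were 67.9% against 42.4% in mouse 1 and 70.0% against 43.9% in mouse 2. The variance of Cd74 was 5.08, 6.24 and 4.78 times its mean in the 3 libraries, and the richest 10% of cells held 64.9%, 65.9% and 68.7% of its UMIs. H2-Aa varied by 2.15, 2.52 and 2.13 times its mean, H2-Ab1 by 2.09, 1.89 and 2.05, and H2-Eb1 by 1.74, 2.09 and 1.77.

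The H2-DM genes did not share this pattern. Cells without H2-DMa were 51.2%, 40.7% and 40.6%, against 49.4%, 39.9% and 38.7% for a Poisson distribution. Its variance was 1.12, 1.11 and 1.14 times the mean, and that of H2-DMb1 1.05, 1.09 and 1.12 times. For comparison, Kit had ratios of 1.14, 1.16 and 1.19, Mecom 1.17, 1.11 and 1.09, and the stem cell factor gene Hlf 1.62, 1.76 and 1.75. The Sca-1 gene Ly6a had 2.03, 2.16 and 2.35, beside the ratios of H2-Aa, H2-Ab1 and H2-Eb1. In mouse 2 LT-HSC, 35.3% of cells held no Ly6a, against 24.7% for a Poisson distribution. Some unevenness was therefore not limited to the class II genes, though the ratios of Cd74 were higher. Such a ratio grows with the mean, so like ratios do not mean like unevenness. Ly6a had thinned means of 1.40, 1.39 and 1.64 UMIs a cell, against 0.479, 0.438 and 0.337 for H2-Aa. The richest 10% of cells held 37.7%, 38.3% and 36.4% of Ly6a UMIs and 61.4%, 68.6% and 70.7% of H2-Aa UMIs. That share in turn rises as the mean falls. These ratios are descriptions over cells, which share libraries and depth.

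**Figure D2:**
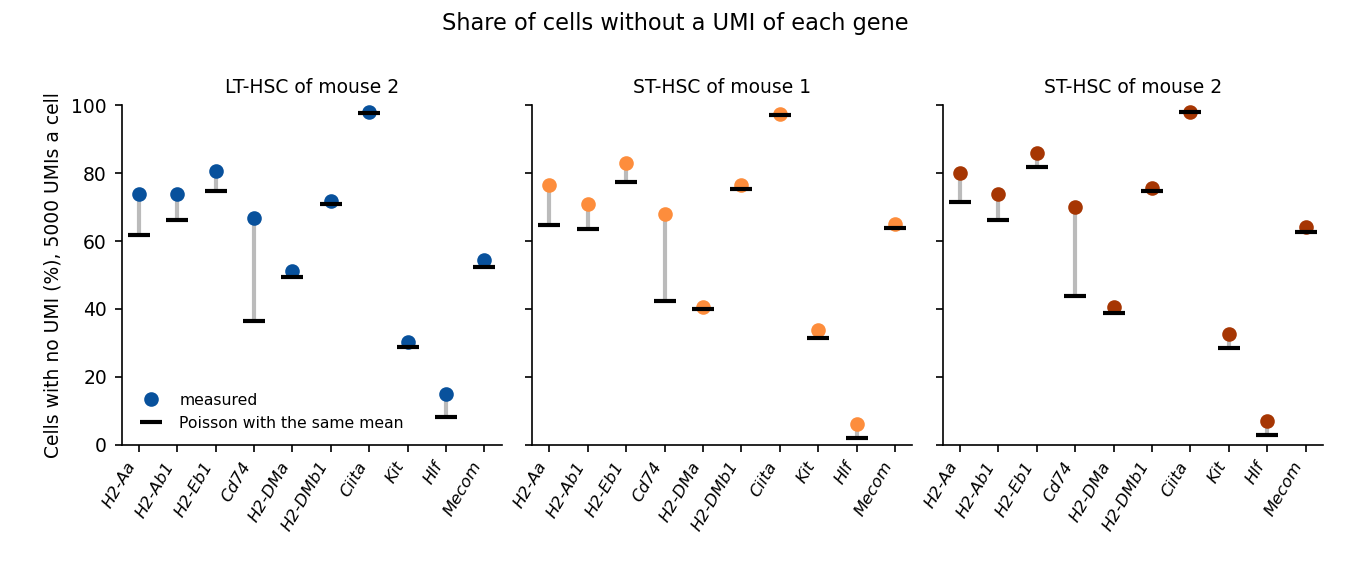
Percent of cells without a UMI of each member and of Kit, Hlf and Mecom after thinning to 5000 UMIs, measured (circles) and for a Poisson distribution of the same mean (bars), in 3 libraries. The gap is widest for Cd74 (66.9% against 36.3% in mouse 2 LT-HSC), smaller for H2-Aa, H2-Ab1 and H2-Eb1, and narrow for H2-DMa (51.2% against 49.4%) and H2-DMb1.

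Several members were often found in the same cell. On unthinned counts, 71.7% of mouse 2 LT-HSC, 73.8% of mouse 1 ST-HSC and 63.7% of mouse 2 ST-HSC held 2 or more of the 7, as did 7 of the 22 cells (31.8%) of mouse 1 LT-HSC. After thinning, these shares were 50.3% (exact interval 47.3 to 53.2), 50.9% (48.9 to 52.8) and 47.9% (45.4 to 50.4). At least 1 member was present in 80.5%, 83.4% and 82.6% of thinned cells, and 5 or more in 6.37%, 6.94% and 5.72%. All 7 were found in 10, 22 and 6 unthinned cells. H2-Aa, H2-Ab1, H2-Eb1 and Cd74, from here on the 4 chain genes, were all present in 5.41%, 5.77% and 4.09% of thinned cells, and 45.7%, 46.7% and 51.3% held none of them.

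The 4 chain genes occurred together more often than the product of their shares. H2-Aa and H2-Eb1 were both present in 125 thinned cells of mouse 2 LT-HSC where the product of the shares gives 58.6 cells, a ratio of 2.13. In mouse 1 ST-HSC there were 260 cells against 103 (2.53), and in mouse 2 ST-HSC 130 against 44.1 (2.95). Cd74 was present in 63.3%, 64.9% and 66.5% of the cells with H2-Aa, and in 22.3%, 21.9% and 21.0% of those without. The lowest ratio of the 6 pairs was that of H2-Ab1 with Cd74, at 1.63, 1.59 and 1.61. The median of the 6 pairs was 1.94, 1.98 and 2.14. By comparison, the chain genes with Kit, Hlf and Mecom had medians of 1.02, 1.01 and 1.00. A ratio cannot exceed 1 divided by the larger share. Hlf, in 85.2%, 93.8% and 93.1% of thinned cells, could therefore not lie far above 1. Mecom, in 45.5%, 35.0% and 35.9%, had more room, and its ratios with H2-Aa were 1.01, 1.12 and 1.01. The correlation of presence over cells (phi) had medians of 0.334, 0.336 and 0.31 for the 6 pairs. With Kit, Hlf and Mecom it was 0.0128, 0.0102 and 0.00146, though phi too is limited where shares differ.

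By the same ratio, H2-DM genes were less tied to the chain genes than these were to each other. The median ratio of the 8 pairs of a chain gene with H2-DMa or H2-DMb1 was 1.19, 1.17 and 1.17, and H2-DMa with H2-DMb1 gave 1.12, 1.02 and 1.06. H2-DMa, present in 48.8%, 59.3% and 59.4% of thinned cells, could not reach the highest ratios of the chain genes. Median phi of the 8 pairs was 0.0931, 0.0782 and 0.0801. The level of H2-DMa was still higher in cells with all 4 chain genes than in cells with none (251, 257 and 303 against 123, 166 and 174 CPM). Ciita with a chain gene gave medians of 1.23, 1.22 and 1.41, from few cells (H2-Aa and Ciita in 15, 22 and 10 cells). H2-Ob was found with H2-Aa in 3, 48 and 30 cells where the product gives 5.5, 60.3 and 31.8. Its ratios with H2-Aa were 0.546, 0.796 and 0.943, so H2-Ob was not found with H2-Aa more often than the product of their shares. Leaving out cells with 3 or more markers of another type, the median ratio of the chain genes in mouse 2 LT-HSC was 1.96.

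**Figure D3:**
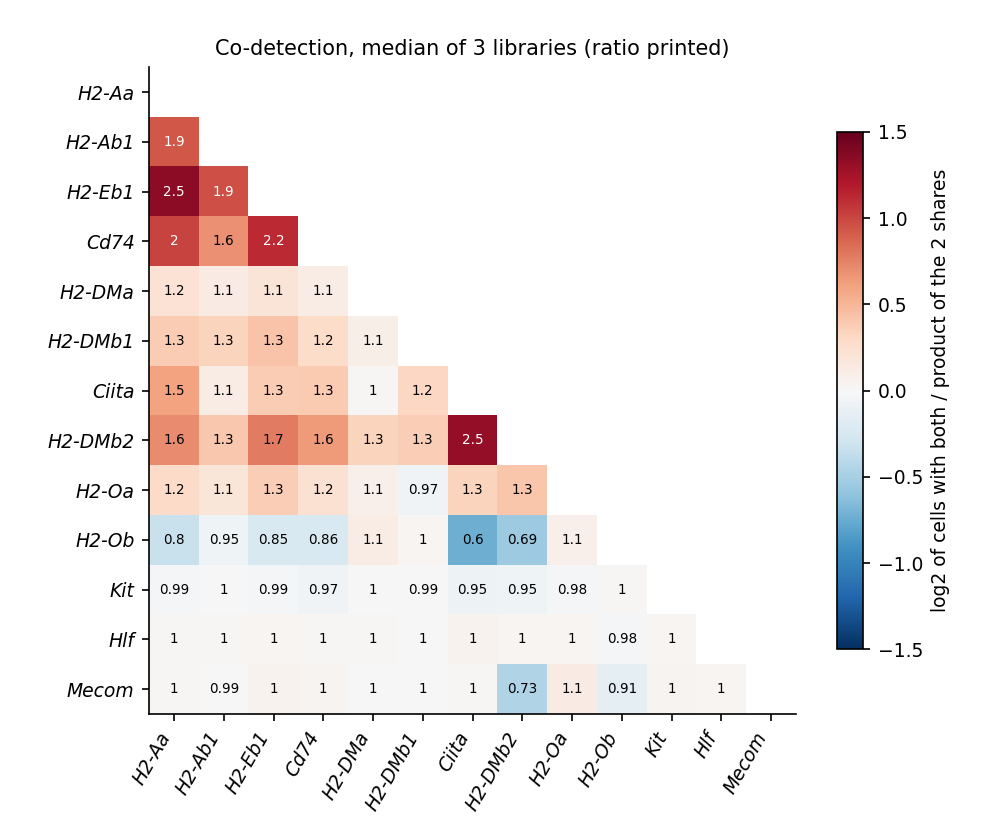
Co-detection of pairs of genes in cells thinned to 5000 UMIs: number of cells with both genes divided by the number given by the product of their shares (median of 3 libraries, colour on a log2 scale). The 6 pairs among H2-Aa, H2-Ab1, H2-Eb1 and Cd74 stand out in red (2.13 to 2.95 for H2-Aa with H2-Eb1), and the H2-DM genes are paler. By the median, H2-Ob is blue with each of those 4 genes, but in mouse 2 ST-HSC it had 1.18 with H2-Ab1 and 1.03 with H2-Eb1. Kit, Hlf and Mecom are near 1. Genes present in many cells, such as Hlf, Kit and H2-DMa, cannot reach a high ratio.

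Cells rich in Cd74 also held the other chain genes. At least 5 Cd74 UMIs were found in 167 cells of mouse 2 LT-HSC (13.7%), 295 of mouse 1 ST-HSC (11.2%) and 147 of mouse 2 ST-HSC (8.61%). Of these cells, 87.4%, 86.8% and 78.9% held H2-Aa, against 17.7%, 16.9% and 11.5% of the cells without Cd74. H2-Eb1 was present in 74.9%, 80.3% and 69.4% against 11.5%, 9.18% and 6.70%, while H2-DMa was present in 75.4%, 89.5% and 84.4% against 69.4%, 80.0% and 72.3%. Median UMIs were alike, 10367, 9922 and 7641 against 10331, 9775 and 7495.

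Stem cell genes were detected in most of these Cd74-rich cells. Kit, the receptor on which the cells were sorted, was detected in 83.8%, 87.8% and 80.3% of them against 88.2%, 85.8% and 82% of cells without Cd74. Hlf was detected in 97.6%, 97.6% and 98% against 94.6%, 97.9% and 95.7%. Mecom was detected in 75.4%, 61.4% and 52.4% against 71.1%, 54.9% and 48.7%. At least 3 markers of another type were present in 3 (1.8%), 11 (3.73%) and 11 (7.48%) of the rich cells and in 0.855%, 3.22% and 4.19% of the others.

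The richest cell of each library was looked at singly. In mouse 1 ST-HSC it held 79 Cd74, 19 H2-Aa and 17 H2-Eb1 UMIs among 6533, with no UMI of Kit, Hlf or Mecom and with 6 of 12 macrophage and monocyte markers (Adgre1, Csf1r, Cd68, Cx3cr1, Ly86 and Ccr2). In mouse 2 LT-HSC the richest cell held 50 Cd74 UMIs with 5 Kit, 4 Hlf and 1 Mecom UMIs. In mouse 2 ST-HSC it held 25 Cd74 UMIs with 7 Kit, 19 Hlf and 7 Mecom UMIs. At most 2 markers of any other type, Bst2 and Tcf4 of the plasmacytoid dendritic cell list, were found in either of these.

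To ask which other genes move with the members, cells with 2 or more members after thinning were compared with cells with none, within each library. There were 576 against 223 cells in mouse 2 LT-HSC, 1304 against 426 in mouse 1 ST-HSC and 762 against 277 in mouse 2 ST-HSC. The classes cut a range and are not cell types: 347, 834 and 551 cells with exactly 1 member were left out, and 247, 563 and 367 of the cells with members held just 2. Their median UMIs were close, 10589 against 10722, 9815.5 against 9993 and 7618 against 7735. Counts were summed per class and library and tested with edgeR with the library as a block. Of 11897 other genes, 86 were higher (0.723%) and 189 lower (1.59%) in cells with members, and the median log2 fold change over all of them was 0.003. Without mouse 1 ST-HSC these counts were 45 and 99, without mouse 2 ST-HSC 51 and 93, and DESeq2 called 17 and 25, all among the edgeR calls. With classes set on the 4 chain genes alone, 166 were higher (1.38%) and 195 lower (1.62%), of which 67 and 109 were shared. With the library left out of the model 0 genes passed (233 at an unadjusted p under 0.05, against 1290 with it), and the p-values rest on 3 libraries of 2 mice.

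Kit and Mecom did not pass the test between these classes, and Hlf was higher with members. Kit lay at 242, 225 and 251 CPM with members and 255, 216 and 250 without, a log2 fold change of 0.004 (interval -0.08 to 0.09). Mecom, a transcription factor gene of long-term stem cells, lay at 132, 87.4 and 92.8 CPM against 126, 86 and 87.9 (0.05, -0.06 to 0.17), and did not pass (edgeR adjusted p = 0.84). Hlf lay at 493, 760 and 682 CPM with members against 408, 674 and 626 (0.19, SE 0.03, edgeR adjusted p = 1.6e-05). It was higher in each of the 3 libraries, and passed in 12 of 14 alternatives, but with classes set on unthinned counts its value was -0.16 (adjusted p = 0.254). All 3 genes were present in 65.3%, 50.5% and 41.1% of cells against 61.4%, 48.4% and 40.1%. Cells with 5 or more members, 73, 178 and 91, held Kit after thinning in 57.5% (exact interval 45.4 to 69.0), 65.2% and 67.0%, against 70.0%, 66.7% and 63.5% of cells with none. Hlf was found in 91.8%, 94.4% and 93.4% of them against 81.2%, 91.1% and 92.4%.

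Of 30 stem genes tested, 6 were higher and 0 lower in cells with members (median log2 fold change 0.07 against 0.003 over all genes). They were Hlf, Hoxa9, Ifitm1, Ifitm3, Ly6a and Procr. Ly6a, which encodes the Sca-1 protein used in the sort and is also raised by interferons, lay at 281, 297 and 364 CPM with members against 212, 217 and 226 without (0.51, SE 0.04, edgeR adjusted p = 1.03e-14), and the value was 0.10 (adjusted p = 0.711) with unthinned classes. Ly6a is also on the interferon list. Slamf1, the gene of the CD150 protein that parts the gates, did not pass (-0.04, interval -0.52 to 0.44). Flt3, a receptor of multipotent progenitors, was at 16.4, 143 and 162 CPM against 10.4, 118 and 143 (0.26, SE 0.06, adjusted p = 0.00491), and lost the call without the 10% of cells with the most UMIs (adjusted p = 0.296). Cd48, whose protein the sort excludes, lay at 1.56, 8.55 and 10.1 CPM with members against 0.77, 17.2 and 22, so it was lower in the ST-HSC libraries alone (-0.97, SE 0.19, adjusted p = 0.000276). It lost the call without mouse 1 ST-HSC (adjusted p = 0.122), without mouse 2 ST-HSC (0.0561) and with cells that carry markers of other types left out (0.064).

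Genes of the interferon response were higher in cells with class II transcripts. Of 24 listed, all tested, 13 were higher and 0 lower, all 24 had a positive fold change, and their median was 0.34. Iigp1, an interferon-induced GTPase gene, lay at 125, 72.4 and 69.4 CPM with members against 67.4, 42.9 and 38.2 without (0.83, SE 0.07, edgeR adjusted p = 2.26e-14). Igtp (0.62), Gbp2 (0.48) and Irf7 (0.46) were higher too, but Irf7 passed in just 4 of 14 alternatives and in neither fit that left out an ST-HSC library (adjusted p = 0.423 without mouse 1 and 0.123 without mouse 2). Outside this list, so were Gbp5 (0.53), another interferon-induced GTPase gene, and Irf1 (0.34), which activates the Ciita promoter. Iigp1 passed in 13 of 14 alternatives, the exception being the fit without the library block. Without mouse 1 ST-HSC, 7 genes of the list were higher, and DESeq2 called 3.

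Class I genes were slightly higher in cells with class II transcripts. Of 18 genes of class I presentation, 7 were higher and 0 lower, and 17 had a positive fold change (median 0.15). B2m, the light chain of class I molecules, lay at 2040, 2080 and 1920 CPM with members and at 1830, 1850 and 1750 without (0.16, SE 0.02, edgeR adjusted p = 3.64e-08). H2-K1 (0.15), H2-D1 (0.14), H2-Q7 (0.21) and H2-T23 (0.23) were higher by similar amounts. DESeq2 called 4 of the list, and with unthinned classes 2 were higher and B2m (0.06) and H2-K1 (0.04) did not pass. Of 20 tested genes of the class II pathway beyond the members, 3 were higher and 0 lower (median 0.09), among them Irf1 and Ctss. Ctss lay at 13.3, 38.2 and 34.9 CPM with members against 5.01, 26.3 and 28.6 (0.54, SE 0.12, adjusted p = 0.00216). H2-DMb2 (0.80, interval 0.10 to 1.5), H2-Oa (0.22, -0.005 to 0.45) and H2-Ob (0.05, -0.24 to 0.33) did not pass.

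**Figure D4:**
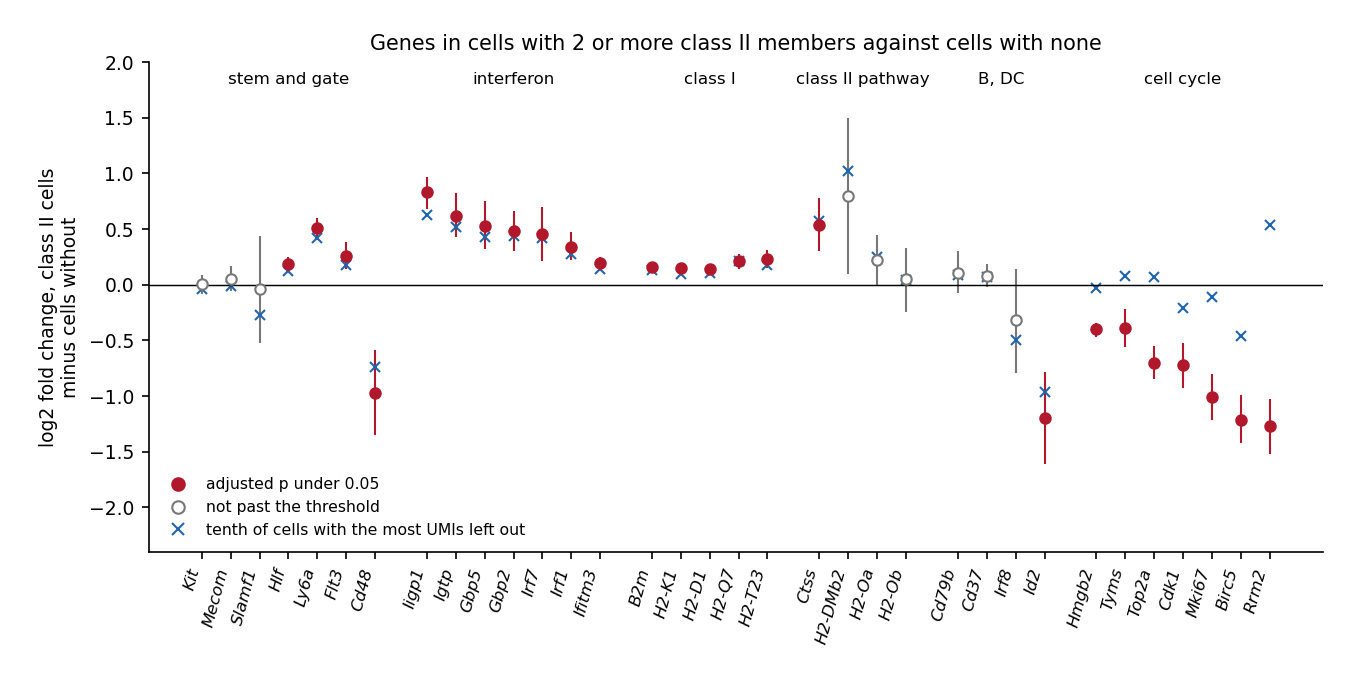
Log2 fold change between cells with 2 or more members and cells with none, fitted over 3 libraries, with 95% intervals (filled: edgeR adjusted p under 0.05), and a cross for the value without the 10% of cells with the most UMIs. Iigp1 (0.83) and Ly6a (0.51) keep their sign under both, Kit and Mecom lie near 0, and the cell cycle genes move towards 0, with Rrm2, Top2a and Tyms crossing it.

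Among genes of other blood lineages, Pf4 of the megakaryocyte list and Ltb of the lymphoid list were higher with members in all 3 libraries. Pf4, a platelet chemokine gene, lay at 96.8, 123 and 119 CPM with members against 70.5, 98.3 and 81.8 (0.41, SE 0.06, edgeR adjusted p = 6.37e-07), and had 0.10 (adjusted p = 0.636) when Cd74 and Ciita were left out of the classes. Ltb, a lymphotoxin gene, lay at 311, 458 and 493 CPM against 243, 397 and 396 (0.28, SE 0.04, adjusted p = 3.54e-08), and had -0.11 with unthinned classes. Pf4 was the sole gene of 16 tested megakaryocyte genes to pass (median -0.11), and of 13 lymphoid genes Ltb and Flt3 were higher and 0 lower (median 0.15). Of 14 myeloid genes 0 were higher and 5 lower (median -0.10), and with cells that carry markers of other types left out 1 of 10 was higher and 0 lower.

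Markers of professional antigen-presenting cells were then read list by list. Of 15 B cell markers 4 could be tested and 0 passed; Cd79b, a chain of the B cell receptor complex, had a log2 fold change of 0.11 (interval -0.07 to 0.30) and Cd37 of 0.08 (-0.02 to 0.19). The summed level of 11 B cell markers was 44.7, 45.0 and 53.2 CPM with members against 46.7, 37.9 and 52.5 without. Ms4a1, Pax5 and Igll1 were at 0 in all cells of both classes. No cell of either class held 3 or more B cell markers. The sum of 9 dendritic cell markers was 19.3, 147 and 166 CPM with members against 13, 124 and 144 without, with Cd209a at 0 throughout. Most of this sum was Flt3, at 16.4, 143 and 162 CPM against 10.4, 118 and 143. It therefore follows Flt3 and says little of the other markers. The 6 plasmacytoid markers summed to 341, 361 and 369 CPM with members against 305, 396 and 314 without. Much of this sum was Bst2, which is also on the interferon list, at 206, 199 and 214 CPM against 173, 179 and 170. In mouse 2 LT-HSC, Siglech, Ccr9, Ly6d and Cox6a2 were at 0 in both classes. Of 7 tested in the dendritic list, which includes plasmacytoid cells, Bst2 was higher (0.23) and Id2 lower (-1.20). Id2 had a value of -0.57 (edgeR adjusted p = 0.292) with cells that carry markers of other types left out and of -0.82 (adjusted p = 0.212) without mouse 1 ST-HSC, and Bst2 lost the call without mouse 2 ST-HSC (adjusted p = 0.0616). In the same list Irf8 did not pass (-0.32, interval -0.79 to 0.14).

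Macrophage and monocyte markers, 12 genes, summed to 13.4, 19.6 and 18.1 CPM with members against 9.57, 14.6 and 31.2 without. Of 6 tested in that list, 0 were higher and Lyz2 was lower (-0.37, edgeR adjusted p = 0.00275), with a value of 0.04 once cells with 3 or more markers of another type were left out and of 0.05 without mouse 2 ST-HSC. Such cells made up 10 (1.74%), 47 (3.60%) and 31 (4.07%) of the cells with members and 2 (0.897%), 17 (3.99%) and 14 (5.05%) of those without. With all of them left out, 89 genes were higher (0.755%) and 134 lower (1.14%), and 77 of the 86 higher genes were shared. The interferon list then had 14 of its genes higher.

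Genes of neutrophils and red blood cell precursors were lower in cells with members. Of 8 neutrophil genes tested 7 were lower in cells with members (median -7.47), and of 13 erythroid genes 10 were lower (median -2.35). S100a8, a neutrophil granule gene, lay at 3.44, 7.69 and 7.49 CPM with members and at 1.54, 1180 and 3470 CPM without (-7.72, SE 0.14), so the direction was not the same in all 3 libraries. A few cells held these UMIs: 3 cells without members held 99.5% of the S100a8 and S100a9 UMIs of that class in mouse 1 ST-HSC and 81.9% in mouse 2 ST-HSC. For the globin genes Hba-a1 and Hbb-bs, 3 cells held 95.4% and 98.3%. Without cells that carry markers of 8 other types, erythroid cells not among them, S100a8 had a value of 0.27 and S100a9 of 0.81, so the sign turned, while Hba-a1 stayed at -4.85 and Hbb-bs at -3.88. Without the 10% of cells with the most UMIs these globin genes had values of 0.63 and 0.54, and without mouse 2 ST-HSC Hbb-bs had -0.61 (edgeR adjusted p = 0.35).

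Genes of the cell cycle were lower in cells with members. Of 51 tested G2 and M phase genes 23 were lower and 0 higher (median -0.41), and of 42 S phase genes 11 were lower and 0 higher (median -0.22). Mki67, a marker of dividing cells, lay at 25, 23.4 and 11.1 CPM with members against 45.4, 48.0 and 25.5 (-1.01, SE 0.10, edgeR adjusted p = 9.08e-12). Top2a, which untangles DNA in dividing cells, lay at 53.7, 56.8 and 31.9 CPM against 100, 89.2 and 43.5 (-0.70). Birc5 (-1.21), Rrm2 (-1.27), Cdk1 (-0.72) and Tyms (-0.39) were lower as well. Without mouse 1 ST-HSC, 12 G2 and M phase and 7 S phase genes were lower, and 2 S phase genes without mouse 2 ST-HSC. Of 15 quiescence genes 0 passed (median 0.08).

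These cell cycle calls rested on cells with many UMIs and on how the classes were set. The 10% of cells with the most UMIs held 73.6%, 70.2% and 69.6% of the Mki67, Top2a and Birc5 UMIs of cells with members and 89.0%, 83.7% and 78.2% of those without. Without that 10%, 0 of 43 G2 and M phase genes and 0 of 41 S phase genes passed, and Mki67 had a value of -0.11 (edgeR adjusted p = 0.977). With the classes set on unthinned counts, where cells with members are deeper (median UMIs 10746 against 8281, 10113 against 8403 and 7713 against 6624.5), 7 G2 and M phase and 19 S phase genes were higher. The interferon list had 9 genes higher without the 10% with the most UMIs and 2 with unthinned classes. Without the 10%, 46 genes were higher (0.399%) and 36 lower (0.312%), and 43 of the 46 and 34 of the 36 were among the genes called with all cells.

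Levels were also read by the number of chain genes a cell held. From cells with 0 to cells with 4 of them, Ly6a went from 199 to 445 CPM in mouse 2 LT-HSC, from 215 to 427 in mouse 1 ST-HSC and from 243 to 506 in mouse 2 ST-HSC. Iigp1 went from 70.2 to 244, from 51.8 to 137 and from 44.7 to 167 CPM. Iigp1 was not higher at each step, since in mouse 2 LT-HSC it lay at 109 CPM with 1 chain gene and at 86.6 with 2. H2-DMa, which is not one of the 4, went from 123 to 251, from 166 to 257 and from 174 to 303 CPM. Kit went from 256 to 209, from 223 to 205 and from 246 to 231, and Hlf from 430 to 550, from 706 to 793 and from 645 to 651. The end group held 62, 148 and 65 cells, against 524, 1197 and 815 without a chain gene.

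**Figure D5:**
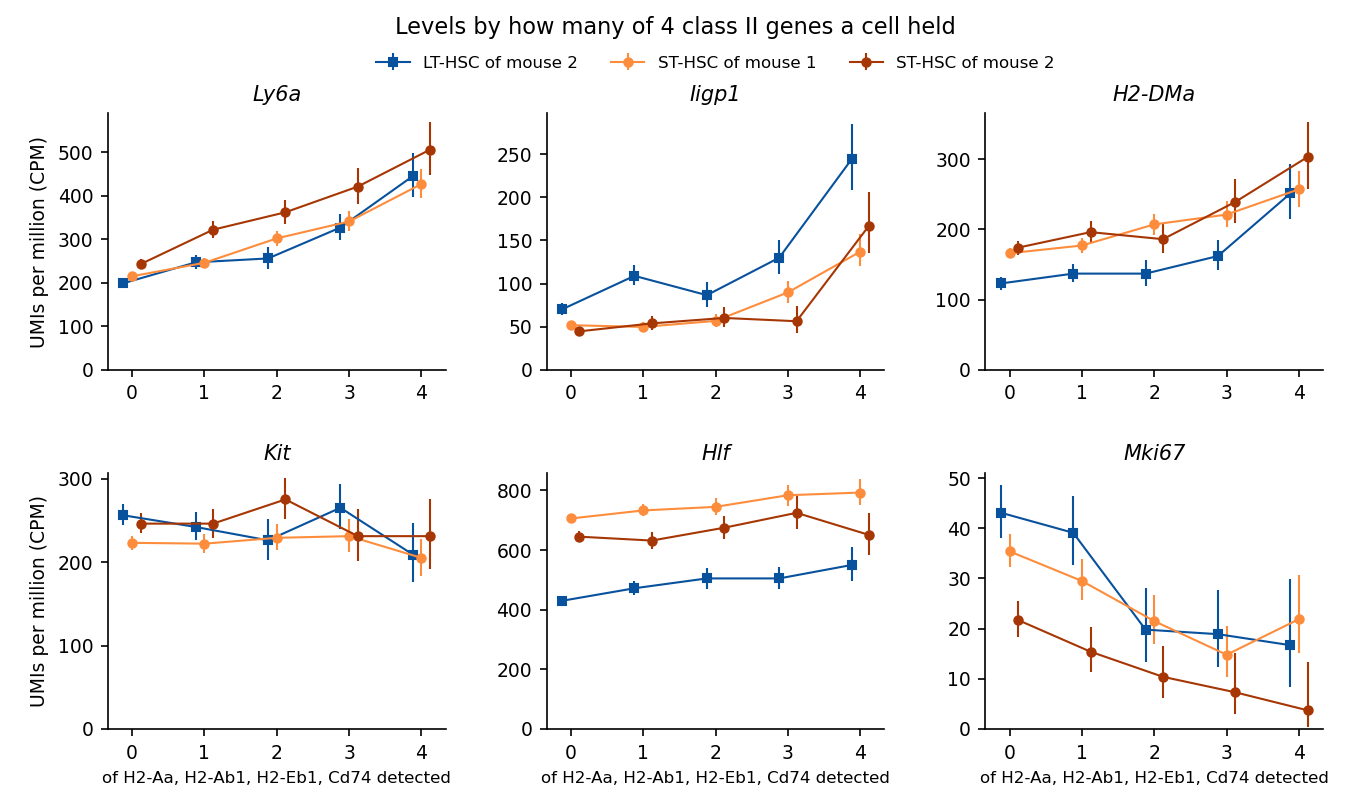
CPM of 6 genes in cells grouped by how many of H2-Aa, H2-Ab1, H2-Eb1 and Cd74 they held after thinning to 5000 UMIs, with 95% counting intervals, in 3 libraries. Ly6a, Iigp1 and H2-DMa are highest in cells with all 4 (Ly6a 445, 427 and 506 CPM), and Mki67 is lower than in cells with none (43.1, 35.4 and 21.7 CPM). Kit is lower with all 4 than with none (209, 205 and 231 against 256, 223 and 246 CPM), with overlapping intervals. Hlf is higher in mouse 2 LT-HSC (550 against 430) and mouse 1 ST-HSC (793 against 706) and level in mouse 2 ST-HSC (651 against 645).

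Over single cells, the genes most alike the members were found by the Pearson correlation of their thinned level with the number of members detected, averaged over the 3 libraries, among 10898 genes. Ly6a led with 0.187, followed by Ifitm3 (0.150), H2-K1 (0.133), H2-D1 (0.129), B2m (0.126), Iigp1 (0.116), Ifitm1 (0.109), Ifi47 (0.108) and H2-T23 (0.107). Ly6a had 0.206 in mouse 2 LT-HSC and 0.163 and 0.191 in ST-HSC. All of these correlations are weak, over sparse counts of cells that share library and depth, and are given as descriptions. At the other end, Nkg7 had -0.0726 and Top2a -0.0676.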

How the data were processed

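Single cells of LT-HSC and ST-HSC from 2 mice were profiled in 4 libraries. The authors deposited raw UMI counts per gene and barcode, made with Cell Ranger 3.1.0 on mm10 per the submitters' processing notes, with software version 3.0.2 per the file headers; the sources used here do not give the selection of barcodes. Cells had 1000 or more genes, 2000 or more UMIs and at most 10% mitochondrial UMIs. No doublet caller was run; leaving out the 10% of cells with the most UMIs was an alternative. Cells were thinned to 5000 UMIs (seed 11) for shares, co-detection and classes.

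Counts were summed per library (gate) or per library and class, then compared by the quasi-likelihood test of edgeR 4.0.16 after filterByExpr and TMM scaling, with Benjamini-Hochberg adjustment over all genes and a threshold of 0.05. Gate was fitted on all 4 sums with no block. Same-numbered libraries came from the same animal, so the mouse as a block was the paired alternative; deviations of same-numbered libraries correlated at 0.159 over 6258 genes (-0.221 over 6095 genes with all barcodes). Classes were fitted with the library as a block over 3 libraries of 200 or more cells. Fold changes of the gate are LT-HSC minus ST-HSC, and of the classes cells with 2 or more members minus cells with none. DESeq2 1.42.0 was the other count test. CPM of single genes between classes use TMM-scaled totals, and all others plain totals. The edgeR fits of the gate and of the classes were run on simulated counts as well, and DESeq2 was not.

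Named genes were the members, Kit, Hlf, Mecom, Slamf1, Cd48, Ly6a, Flt3 and 4 near relatives; from the class test the 12 largest changes each way past the threshold with 20 CPM or more and 1 direction in all 3 libraries; up to 3 genes of each of 17 lists by smallest p with 5 CPM or more; and the 10 genes most alike. Hoxa9, Procr, Ctss in the gate and the genes with the most negative correlation were named after their values were seen. Members and lists were chosen with earlier results of these data known. P-values of the main gate fit measure the spread between libraries. In the class fit the library block takes out that spread. Its p-values therefore measure how evenly the difference between classes recurs from library to library, and not the spread between animals. A gene that these rules name is not reported here.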

Additional observations from a re-analysis of the deposited data

Results flagged for a closer look

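Signal of the members was present in data that the comparisons of cells do not use. In mouse 1 LT-HSC, 39531 barcodes with 13460097 UMIs fell below the cell filter. They held H2-Aa at 87.7 CPM (1180 UMIs), H2-Ab1 at 85.2, H2-Eb1 at 59.0, H2-DMa at 153, H2-DMb1 at 64.0, Cd74 at 179 and Ciita at 3.12 CPM, all above the floor of 0.223 CPM that 3 counts set. These levels lie beside those of the cells of mouse 2 LT-HSC, but that of Hlf over all barcodes does not (253 against 470 CPM). How many of the barcodes are intact cells was not tested. No group had the 4 samples that the search for a single distant sample needs.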

How the results depend on the processing

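Of the named genes, 640 of the alternative values of the class comparison kept direction and side of the threshold, 174 lost the call, 2 gained it and 58 changed sign; at the gate these were 109, 2, 3 and 16. The cause of each change was not tested unless the setting itself shows it (fewer cells or libraries). DESeq2 with all barcodes, classes from the 4 chain genes and the class fit with no replicate block were chosen after seeing the data. Depth limits the cells of mouse 1 LT-HSC, and 3 libraries limit the class comparison.

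With the replicate block, 1 member (H2-DMa) passed at the gate, and the block changed no other member's call. DESeq2 gave H2-Aa -0.01, H2-Eb1 -0.08 and Cd74 -0.03 at the gate and Kit -0.002 between classes. All barcodes of mouse 1 LT-HSC gave H2-Ab1 0.12 and Ciita -0.13, with the replicate block 0.12 and -0.13, and with DESeq2 0.11 and -0.13. Leaving out a library, gate values ran from -0.90 to 0.29 (H2-Aa), -2.42 to 0.35 (H2-Eb1), -2.36 to -0.04 (H2-Ab1), -0.57 to 0.22 (H2-DMb1), -0.85 to 0.25 (Cd74) and -0.14 to 0.77 (Ciita), with the most negative values of all but Ciita without mouse 2 LT-HSC; Cd74 was -0.0009 without mouse 1 ST-HSC and H2-Aa -0.04 without mouse 2 ST-HSC.

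Between classes, genes higher numbered 17 with DESeq2, 144 with no filter on low counts, 142 with classes at 2000 UMIs, 37 with 1 or more members, 46 without the 10% with the most UMIs, 0 with no replicate block, 166 with classes from the 4 chain genes, and 45 to 93 leaving out a library. Genes lower numbered 25 with DESeq2, 124 with unthinned classes, 111 with 1 or more members, 36 without that 10%, 0 with no replicate block, and 93 to 160 leaving out a library.

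With unthinned classes the values were Kit -0.03, Hlf -0.16, Mecom -0.19, Cd48 0.60, Gm4951 -0.06, Irf7 -0.03, Ifitm3 -0.01, Ifitm1 -0.20, Wfdc17 -0.09, Ltb -0.11, Mpo 3.68, Ms4a3 1.17, Irf8 0.28, Cd79b -0.03, Cd68 0.37 and Nkg7 0.44. The cell cycle genes were then Rrm2 0.40, Birc5 0.25, Mki67 0.85, Cdca8 1.05, Hist1h2ap 0.12, Spc24 1.42, Cdk1 1.40, Top2a 1.15, Pclaf 1.57, Tyms 1.04, Clspn 0.81 and Hmgb2 0.35. Without the 10% with the most UMIs, Kit was -0.04, Mecom -0.01, Rrm2 0.54, Spc24 0.01, Top2a 0.07, Pclaf 0.50, Fbxo5 0.02, Hba-a1 0.63, Hbb-bs 0.54 and Tyms 0.08. Leaving out cells of other types gave Kit -0.02, Irf8 0.16, Lyz2 0.04, S100a8 0.27 and S100a9 0.81. Kit was -0.0005 with 1 or more members, -0.003 with the 4 chain genes and -0.004 with no replicate block. H2-Ob was -0.25 with the 4 chain genes and -0.24 at 2000 UMIs, where Cd68 was 0.01, and Slamf1 was 0.07 with Cd74 and Ciita left out of the classes. Leaving out a library, class values ran from -0.04 to 0.04 (Kit), -0.52 to 0.26 (Irf8), -0.02 to 0.18 (Cd79b), -0.24 to 0.05 (Cd68), -0.11 to 0.01 (Slamf1), -0.0004 to 0.19 (H2-Ob) and -0.62 to 0.05 (Lyz2).

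Thinned to 5000 UMIs, 50.3%, 50.9% and 47.9% of cells held 2 or more members, and thinned to 2000 UMIs 23%, 24.5% and 22.8% (4.55% in mouse 1 LT-HSC, whose cells of 5000 or more UMIs had 55.6%, and 33.3% thinned). The median ratio of the chain genes was 1.72, 1.65 and 1.91 unthinned and 2.33, 2.46 and 2.57 at 2000 UMIs.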
